A study of Mus musculus with 28 samples.

Results

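The subject is a set of 38 mouse genes of the NRF2 (nuclear factor erythroid 2-related factor 2) antioxidant response and of hydrogen sulfide handling, listed by symbol and matched to 38 of the 55413 Ensembl gene IDs in the deposited files. They were measured in spleen cells sorted for CD3, the T cell marker, across 5 treatment groups. The rule that chose them was a list of symbols and used no threshold on measured values, but the list was drawn up with earlier results of these data known. A filter on low counts left 37 of the 38 for testing. Nqo1, an NRF2 target enzyme that reduces quinones, was the member left out, with at most 1.62 CPM (counts scaled to 1000000 counts per library) in any library. In the files Nfe2l2 is ENSMUSG00000015839.7, Keap1 is ENSMUSG00000003308.16, Prdx1 is ENSMUSG00000028691.13, Cat is ENSMUSG00000027187.11, Gpx4 is ENSMUSG00000075706.12, Sqor is ENSMUSG00000005803.15 and Ethe1 is ENSMUSG00000064254.7. The deposited tables carry no coordinates.

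All mice were male C57BL/6J of 8 to 12 weeks, and the treated ones received 11 doses over 11 days. The group rPS (5 libraries) received polymersomes, vesicles of poly(ethylene glycol)-block-poly(propylene sulfide), loaded with rapamycin and injected under the skin at 1 mg/kg rapamycin and 60 mg/kg polymer. The group PS (4 libraries) received the empty polymersomes at 60 mg/kg polymer by the same route. The group R (6 libraries) received rapamycin at 1 mg/kg under the skin in 0.2% carboxymethylcellulose, and the group RO (6 libraries) received Rapamune, an oral rapamycin, at 1 mg/kg by gavage. The group NT (7 libraries) was untreated. No group received carboxymethylcellulose alone, so R differs from rPS in its vehicle as well as in lacking the polymer. CD3-positive cells were taken from the spleen by magnetic sorting, and 1 bulk RNA library was deposited per replicate. The labels number the libraries as replicates without naming the animals, so the p-values measure the spread between these libraries, which may be technical.

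NRF2, encoded by Nfe2l2, is a transcription factor that the adaptor KEAP1 marks for degradation in resting cells. Oxidants and electrophiles modify cysteines of KEAP1, after which NRF2 accumulates and, paired with a small MAF protein, binds antioxidant response elements in the promoters and enhancers of its targets. These targets make and recycle glutathione and thioredoxin, supply NADPH, detoxify quinones and heme, and store iron. Hydrogen sulfide is oxidised in mitochondria, first by the quinone oxidoreductase SQOR and then by ETHE1, TST and SUOX, which pass the sulfur on to thiosulfate, sulfite and sulfate. The polymer block poly(propylene sulfide) is a thioether chain that oxidants convert to sulfoxides and sulfones. Whether the polymer meets T cells in the spleen was not measured here.

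Promoter sequence was read for 31 of the 38 members from RefSeq windows of build GRCm38.p6, which run from 250 bases before to 50 bases after each start. The core of the antioxidant response element was searched as TGACNNNGC on both strands. It stood in a window of 10 of the 31 members (32.3%), against 14% of all 27025 symbols in the same table. Counted by window, since some genes have several, the shares were 23.3% of 43 member windows and 12.4% of all windows. A match is a description of letters and not a bound site. The 250 bases before the start are shown for 4 members whose match lies there and that stand on both sides of the results below. Prdx1 and G6pdx passed the test as lower in rPS, while Gclm and Txnrd1, textbook NRF2 targets, did not pass. Capitals mark the motif, which lies on the opposite strand in all 4, so the printed letters are its reverse complement.
Prdx1: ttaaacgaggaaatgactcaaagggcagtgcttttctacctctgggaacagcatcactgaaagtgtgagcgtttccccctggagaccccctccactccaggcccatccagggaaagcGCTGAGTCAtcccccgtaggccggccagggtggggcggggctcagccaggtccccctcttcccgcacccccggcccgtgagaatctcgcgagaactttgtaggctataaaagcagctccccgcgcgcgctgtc
G6pdx: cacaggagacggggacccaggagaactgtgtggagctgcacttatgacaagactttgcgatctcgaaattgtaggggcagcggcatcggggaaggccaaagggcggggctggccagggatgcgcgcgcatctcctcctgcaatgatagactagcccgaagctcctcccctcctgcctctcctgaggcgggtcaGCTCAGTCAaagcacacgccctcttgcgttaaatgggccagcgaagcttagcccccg
Gclm: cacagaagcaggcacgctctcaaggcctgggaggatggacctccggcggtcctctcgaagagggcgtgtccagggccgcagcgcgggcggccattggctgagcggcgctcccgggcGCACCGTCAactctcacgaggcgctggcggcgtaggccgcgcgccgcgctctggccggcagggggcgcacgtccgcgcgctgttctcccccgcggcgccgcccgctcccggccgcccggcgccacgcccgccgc
Txnrd1: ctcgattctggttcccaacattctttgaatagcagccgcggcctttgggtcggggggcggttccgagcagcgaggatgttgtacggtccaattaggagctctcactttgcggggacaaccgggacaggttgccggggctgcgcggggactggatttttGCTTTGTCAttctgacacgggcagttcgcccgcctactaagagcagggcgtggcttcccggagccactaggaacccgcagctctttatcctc
The windows are chr4:116685349-116685598 on the plus strand for Prdx1, chrX:74428881-74429130 on the minus strand for G6pdx, chr3:122245307-122245556 on the plus strand for Gclm and chr10:82858956-82859205 on the plus strand for Txnrd1. The match begins 133 bases before the start in Prdx1, 57 bases in G6pdx, 134 bases in Gclm and 92 bases in Txnrd1. In Prdx1 it overlaps a match to TGANTCA, the site of AP-1 factors. The other 6 members with a match were Nfe2l2, Srxn1, Pgd, Mgst1, Mpst and Sod1. Of the 12 members lower in rPS than in NT (below), all with a window, 4 held the motif, and of the 19 other members with a window 6 held it.

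Libraries held 4286896 to 15696541 counts, so that 3 counts, the most that a count of 0 allows by counting error, correspond to between 0.191 and 0.7 CPM. Cd3e, which encodes the CD3 epsilon chain that the sort relies on, was below 60 CPM in 6 of the 27 libraries used. These were 4 of NT (replicates 3, 4, 7 and 8) with replicate 3 of R and replicate 3 of RO, and their Cd3e values ran from 9.58 to 46.9 CPM, while the 21 others ran from 76.0 to 471 CPM. The summed CPM of 8 T cell markers ran from 104 to 345 in the 6 libraries and from 563 to 2486 in the 21 others, so by T cell markers the 6 libraries went against their CD3-positive label. The sums of 9 monocyte and macrophage markers were 4457 to 8501 in the 6 and 134 to 1915 in the 21 others, and those of 8 neutrophil markers 355 to 2948 in the 6 and 4.79 to 237 in the 21 others. Red pulp macrophage sums (9 genes) overlapped, at 1570 to 2981 in the 6 and 150 to 3015 in the 21 others. B cell markers (7 genes) were present in every library, with sums of 3289 to 15290 in the 6 and 1019 to 8441 in the 21 others. NK cell sums (6 genes) did not overlap, at 282 to 393 in the 6 and 66.4 to 228 in the 21 others. Of their genes only Tyrobp stood apart, at 164.5 to 267.8 CPM in the 6 and 5.44 to 61.4 CPM in the others. Ncr1, Klrb1c, Klre1, Gzma and Eomes overlapped, with Eomes at 15.5 to 41.3 CPM in the 6 and 26.7 to 57.6 CPM in the others. Dendritic cell sums (6 genes) were 274 to 822 in the 6 and 39.1 to 299 in the 21 others, and plasma cell sums (6 genes) 1154 to 5535 in the 6 and 195 to 2164 in the 21 others. No marker of these lists was at 0 in every library. RO replicate 7 listed 0 for 11 of the 38 members (Abcc1, Prdx3, Prdx5, Gstp1, G6pdx, Tkt, Fth1, Sod1, Sod2, Tst and Mpst) and was left out of every value below, which leaves 27 libraries. Malat1, an abundant nuclear RNA, was listed at 0 in all 7 NT libraries and between 15690 and 27820 CPM in the 20 treated libraries used. RO replicate 7, a treated library, also listed it at 0. In the libraries used, treatment and a difference in how the NT libraries were made or counted cannot be told apart. In bulk RNA, fewer cells of a type and less RNA per cell cannot be told apart.

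The 6 libraries of low Cd3e stood apart in a large share of the antioxidant genes. Of the 37 tested members, 14 were higher in each of the 6 than in any of the 21 others, while 6.98% of the 17132 genes tested were. They were Nfe2l2, Srxn1, Slc7a11, Txn1, Gsr, Mgst1, Gstm1, G6pdx, Pgd, Tkt, Taldo1, Ftl1, Ethe1 and Sqor. Slc7a11, the cystine transporter that feeds glutathione synthesis, had a median of 16.2 CPM in the 6 libraries and 1.09 CPM in the others, a ratio of 14.8. Glutathione reductase (Gsr) had medians of 494 CPM in the 6 and 51.5 CPM in the others (ratio 9.59). The membrane glutathione transferase Mgst1 had medians of 34.6 CPM in the 6 and 3.86 CPM in the others (ratio 8.95). Sqor, the first enzyme of sulfide oxidation, had medians of 41.1 CPM in the 6 and 6.04 CPM in the others (ratio 6.8). Suox, the sulfite oxidase that ends the pathway, went the other way as the 1 member lower in every low-Cd3e library (5.79% of all genes), with medians of 11.0 CPM in the 6 and 19.9 CPM in the others. The other 22 tested members overlapped, among them Keap1 (ratio 0.913), Txnrd1 (ratio 0.999) and Abcc1 (ratio 0.97). Because 4 of the 7 NT libraries are of this kind and none of the 9 polymersome libraries is, each difference from NT is given below with all 27 libraries and with the 21 alone. The 21 are not matched in T cell markers either. Their 3 NT libraries, replicates 5, 2 and 6, had T cell sums of 563, 2241 and 2486. The sums there were 716 to 1874 in rPS, 1284 to 1812 in PS, 884 to 1207 in R and 1284 to 1588 in RO.

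**Figure D1:**
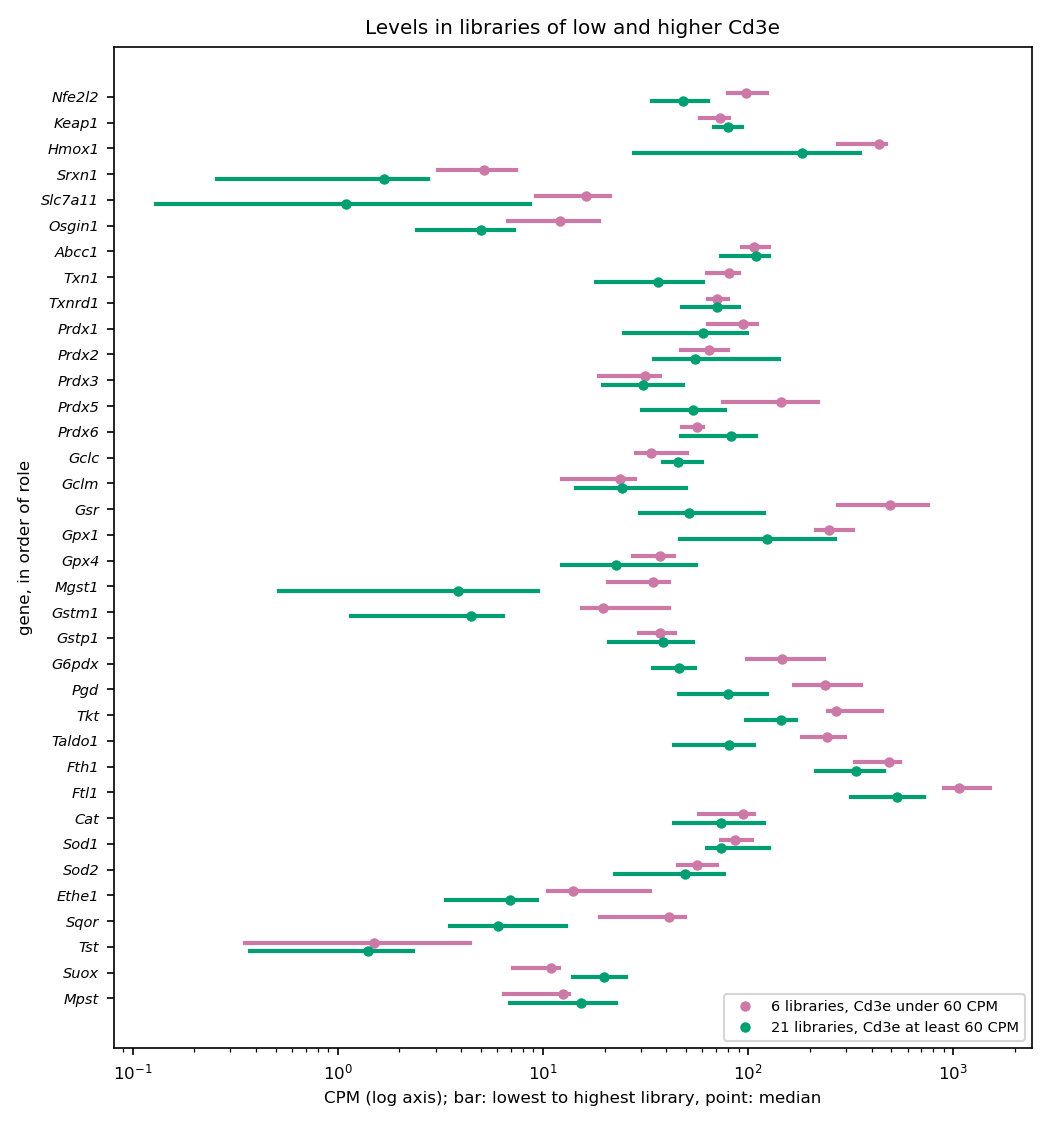
Levels of 36 members in the 6 libraries of Cd3e under 60 CPM (pink, upper bar of each pair) and in the 21 others (green), in CPM on a log axis, where bars run from the lowest to the highest library and points are medians. Nqo1 and Gsta4 are left out because they were at 0 in a library. The bars of 14 genes such as Gsr, Mgst1 and Sqor do not touch and lie to the right in the 6 libraries, while those of Keap1, Txnrd1 and Abcc1 coincide.

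In rPS, mice given the loaded polymersomes, 12 antioxidant and sulfide genes were lower than in untreated mice and none was higher. The 12 were Cat, Prdx1, Txn1, Srxn1, Slc7a11, Osgin1, Gstm1, Ethe1 and the 4 genes of NADPH supply, G6pdx, Pgd, Tkt and Taldo1, with log2 fold changes between -3.05 and -0.75. They are 12 of 37 members (32.4%), against 10.9% of all genes called lower and 21.5% called in either direction (edgeR, adjusted p under 0.05 over 17132 genes). The median log2 fold change was -0.75 over the members and -0.01 over all genes tested, and 32 of the 37 members lay below 0, beside 50.8% of all genes. DESeq2 called 17 members, the same 12 and Nfe2l2, Sqor, Mgst1, Gsr and Gpx1, all lower. The share of all genes that DESeq2 called is not given here, so this count cannot be set beside it. With the 21 libraries of higher Cd3e 0 of 37 members passed edgeR's test, where 3.19% of all genes did. There the median was -0.26, and 31 of 37 lay below 0, beside 49.7% of all genes. An unadjusted p under 0.05 was met by 9 members, and the smallest adjusted p was 0.0664, that of Abcc1. A further fit left out NT replicate 5 (Cd3e 76.0 CPM) as well, a choice made after seeing the data that leaves 2 NT libraries. There 9 members passed, with Abcc1 higher and Cat, Prdx1, Tkt, Ethe1, Gpx4, Sod1, Prdx3 and Mpst lower. The share of all genes called in that fit is not given here. With the monocyte and macrophage markers as a covariate in the 27 libraries, 1 member passed, Abcc1, at 0.38 (adjusted p = 0.0375), and it was higher in rPS. Leaving out single libraries from the 27 moved the count to 5 without NT replicate 4 or rPS replicate 5, to 6 without NT replicate 8, to 7 without rPS replicate 4 or 7 and to 18 without NT replicate 5. Neither these counts nor that of the covariate fit has the share of all genes beside it. They therefore do not tell a shift in the members from a shift in all genes.

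**Figure D2:**
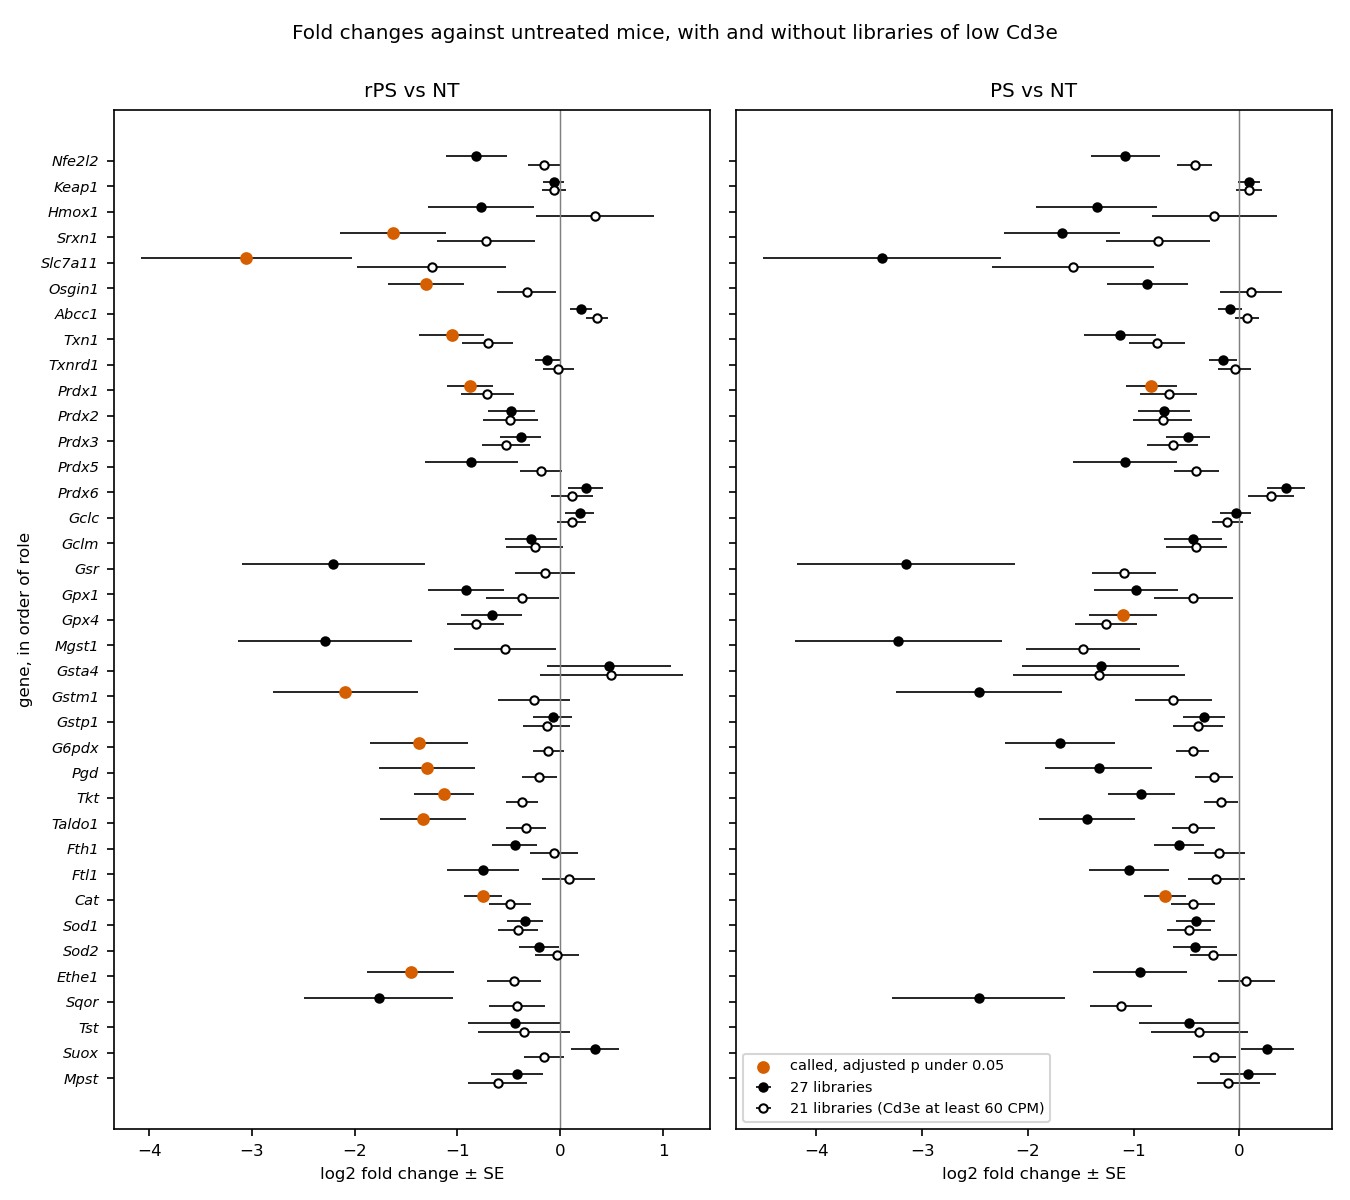
Log2 fold changes of the 37 tested members with standard errors, in rPS against NT (left) and PS against NT (right), in all 27 libraries (filled) and in the 21 of Cd3e at least 60 CPM (open). Orange marks members with an adjusted p under 0.05, 12 on the left and 3 on the right, all from the 27 libraries. Most open points lie nearer to 0 than their filled partners, while those of Prdx1, Cat and Gpx4 stay between -1.26 and -0.44.

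By edgeR neither regulator passed the test, while DESeq2 called Nfe2l2 lower in rPS at -0.81 (adjusted p = 0.0296). Nfe2l2 was at 34.1, 45.4, 50.1, 51.1 and 63.95 CPM in rPS, against 46.7 at the lowest, 80.02 at the median and 124 CPM at the highest in NT. The 4 NT libraries of low Cd3e held its 4 highest levels, and the 3 others, at 46.7, 56.2 and 59.8 CPM, lay within the rPS range. Its log2 fold change was -0.82 ± 0.30 (SE, adjusted p = 0.0511) in 27 libraries and -0.16 ± 0.16 (SE, adjusted p = 0.601) in 21. Keap1 was at 68.1, 70.7, 72.1, 73.1 and 87.2 CPM in rPS and at 63.2 at the lowest, 73.7 at the median and 81.4 CPM at the highest in NT, with a log2 fold change of -0.06 ± 0.10 (SE, adjusted p = 0.662). The groups overlapped almost wholly for Keap1, whose deposited counts were fractional in all 28 libraries, so that reads may be shared with another feature.

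Among the inducible targets, 3 of 5 tested fell in rPS by edgeR and by DESeq2. Srxn1, sulfiredoxin, which reactivates overoxidised peroxiredoxins, was at 0.259, 1.44, 1.63, 1.87 and 1.95 CPM in rPS, against 1.98 at the lowest, 4.44 at the median and 7.38 CPM at the highest in NT. The 2 groups did not overlap, but the highest rPS and the lowest NT library nearly met, and the lowest rPS value lies under what 3 counts give. The log2 fold change was -1.63 ± 0.52 (SE, adjusted p = 0.028) in 27 libraries and -0.72 ± 0.48 (SE, adjusted p = 0.394) in 21. Slc7a11 was at 0.1295, 0.666, 1.496, 2.099 and 2.34 CPM in rPS, against 0.446, 0.923, 8.696, 9.300, 14.1, 18.3 and 19.9 CPM in NT. In NT it was high in the 4 libraries of low Cd3e and in NT replicate 5, while the 2 others lay inside the rPS range. Its log2 fold change of -3.05 ± 1.03 (SE, adjusted p = 0.0369) therefore rests on those 5 libraries, was -1.25 ± 0.73 (SE, adjusted p = 0.33) in the 21, and turned to 0.86 without NT replicate 5 as well. Osgin1, an oxidative stress-induced growth inhibitor, was at 2.43, 3.495, 3.66, 6.04 and 6.07 CPM in rPS and at 4.62 at the lowest, 8.86 at the median and 18.8 CPM at the highest in NT. It changed by -1.30 ± 0.37 (SE, adjusted p = 0.017) on the log2 scale, and the 3 NT libraries of higher Cd3e, at 4.62, 4.71 and 6.81 CPM, reached into the rPS range, with -0.33 ± 0.29 (SE, adjusted p = 0.536) in 21 libraries.

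Hmox1, heme oxygenase, which breaks down heme and is high in macrophages that clear red cells, varied widely within rPS. Its rPS libraries were at 27.8, 91.9, 211, 298 and 352 CPM, against 101 at the lowest, 386 at the median and 471 CPM at the highest in NT. The lowest rPS library, replicate 5, was also the library with the least Lyz2, a myeloid lysozyme gene (18.9 CPM), the lowest B cell sum (1019) and the lowest red cell sum of its group (113). It held the lowest rPS value of Srxn1 and Slc7a11 too. The summed CPM of 9 red pulp macrophage markers was 150 in this library, 503, 1084 and 3015 in rPS replicates 4, 7 and 1, with Hmox1 at 91.9, 211 and 298 CPM, and 2346 in replicate 2, with Hmox1 at 352 CPM. The part of these cells in its values was not tested. The log2 difference of -0.77 ± 0.51 (SE, adjusted p = 0.276) did not pass, and it was 0.34 ± 0.57 (SE, adjusted p = 0.777) in the 21 libraries. Abcc1, which exports glutathione conjugates, had 112, 116, 119.7, 121 and 126 CPM in rPS and 74.2 at the lowest, 97.7 at the median and 125 CPM at the highest in NT. It had the smallest adjusted p of the 21-library comparison, at 0.36 ± 0.11 (SE, adjusted p = 0.0664), and was singled out after its values were seen. Nqo1 was at 0.195 to 1.11 CPM in rPS and 0.0777 to 1.62 CPM in NT, which is 1 to 10 counts in rPS libraries and 1 to 14 in NT libraries.

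In the thioredoxin and peroxiredoxin group 2 of 7 members fell by edgeR and by DESeq2. Prdx1, an abundant cytosolic peroxidase that reduces hydrogen peroxide, was at 24.7, 39.7, 45.4, 74.2 and 74.5 CPM in rPS, against 61.96 at the lowest, 91.8 at the median and 111 CPM at the highest in NT. Only NT replicate 5, the lowest NT library, lay within the rPS range. The means were 51.7 ± 22.01 CPM in rPS (SD, n = 5) and 90.5 ± 15.2 CPM in NT (SD, n = 7), with a log2 fold change of -0.87 ± 0.22 (SE, adjusted p = 0.0101). It was -0.71 ± 0.26 (SE, adjusted p = 0.122) in the 21 libraries and did not pass, and without NT replicate 5 as well it was -0.92 (adjusted p = 0.0292). Txn1, thioredoxin, which passes electrons to peroxiredoxins and ribonucleotide reductase, was at 18.1, 22.6, 34.9, 39.5 and 52.95 CPM in rPS, against 50.2 at the lowest, 63.4 at the median and 85.5 CPM at the highest in NT. The highest rPS library alone lay above the lowest NT library. Txn1 changed by -1.06 ± 0.32 (SE, adjusted p = 0.0215) in 27 libraries, a call lost without rPS replicate 4 or 5, and by -0.71 ± 0.25 (SE, adjusted p = 0.112) without passing in 21. Txnrd1, the reductase that recharges thioredoxin, was at 47.8, 61.98, 64.1, 82.8 and 89.96 CPM in rPS and 64.4 at the lowest, 71.9 at the median and 80.3 CPM at the highest in NT, with a log2 difference of -0.13 ± 0.12 (SE, adjusted p = 0.458). The other 4 peroxiredoxins did not pass. Prdx2 and Prdx3 stood at -0.47 and -0.39 in 27 libraries and at -0.49 and -0.53 in 21, Prdx5 at -0.86 and -0.19, and Prdx6 at 0.25 and 0.11. Counts of Prdx2 and Prdx5 were fractional in 22 and 27 libraries.

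In the glutathione group 1 of 9 members passed by edgeR, and 4 by DESeq2, which added Mgst1 (adjusted p = 0.0118), Gsr (adjusted p = 0.0289) and Gpx1 (adjusted p = 0.0492). Gstm1, a cytosolic glutathione transferase, was at 1.17, 3.31, 4.86, 5.11 and 5.13 CPM in rPS, against 4.46, 4.501, 5.03, 15.6, 16.2, 20.1 and 41.2 CPM in NT. Its 4 high NT values were those of low Cd3e, and the 3 others lay within the rPS range, so its log2 fold change of -2.09 ± 0.71 (SE, adjusted p = 0.0377) became -0.26 ± 0.35 (SE, adjusted p = 0.715) in 21 libraries. The 2 subunits of glutamate-cysteine ligase, the first enzyme of glutathione synthesis, did not pass. Gclm, the regulatory subunit, was at 17.7, 18.8, 20.9, 22.2 and 32.2 CPM in rPS and 14.5 at the lowest, 27.4 at the median and 35.3 CPM at the highest in NT, a log2 difference of -0.28 ± 0.25 (SE, adjusted p = 0.433). Its counts were fractional in 27 libraries. Gclc, the catalytic subunit, had a log2 difference of 0.19 ± 0.14 (SE, adjusted p = 0.322). Gpx4, the peroxidase of membrane lipids, was at 12.4, 18.9, 22.6, 28.4 and 40.2 CPM in rPS, against 24.6 at the lowest, 34.5 at the median and 55.6 CPM at the highest in NT. The groups overlapped, and its log2 difference did not pass at -0.67 ± 0.29 (SE, adjusted p = 0.0992) in 27 and -0.82 ± 0.28 (SE, adjusted p = 0.0973) in 21 libraries. The remaining 5, Gsr, Gpx1, Mgst1, Gsta4 and Gstp1, ranged from -2.28 to 0.48 in 27 libraries and from -0.54 to 0.50 in 21, with Mgst1 lowest and Gsta4 highest in both.

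All 4 genes of NADPH supply fell in the 27 libraries. They are enzymes of the pentose phosphate pathway, which makes the NADPH that glutathione and thioredoxin reductases consume. G6pdx, whose enzyme opens the pathway, was at 35.5, 36.1, 38.01, 52.1 and 54.99 CPM in rPS, against 43.2, 47.5, 50.5, 99.3, 110.3, 145 and 234 CPM in NT. Here too the 4 highest NT values belonged to the libraries of low Cd3e, and the 3 others lay within the rPS range. Its log2 fold change was -1.37 ± 0.47 (SE, adjusted p = 0.0405) in 27 libraries and -0.12 ± 0.15 (SE, adjusted p = 0.694) in 21. Pgd, the next NADPH-making enzyme, changed by -1.29 ± 0.47 (SE, adjusted p = 0.0495), a call kept in 6 of 27 fits that each left out 1 library, and by -0.20 in 21. Tkt, transketolase, was at 97.5, 111, 114, 134 and 138 CPM in rPS, against 122 at the lowest, 249.1 at the median and 452 CPM at the highest in NT. Of the NT libraries, NT replicate 5 alone lay within the rPS range. Tkt changed by -1.13 ± 0.29 (SE, adjusted p = 0.0108) in 27 libraries and stood at -0.37 ± 0.15 (SE, adjusted p = 0.17) in 21. Taldo1, transaldolase, changed by -1.33 ± 0.42 (SE, adjusted p = 0.0262), with 43.5, 66.7, 67.2, 90.9 and 107 CPM in rPS and 91.3 at the lowest, 184 at the median and 296 CPM at the highest in NT, and stood at -0.33 in 21. G6pdx had fractional counts in 11 libraries, so its reads may be shared with a similar gene and its level is uncertain. Fth1 and Ftl1, the chains of the iron store ferritin, did not pass, at -0.44 and -0.75 in 27 libraries and -0.06 and 0.08 in 21.

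Cat, catalase, which splits hydrogen peroxide in peroxisomes and is abundant in red cell precursors, had the smallest adjusted p of the members. It was at 43.8, 46.6, 56.5, 62.5 and 74.3 CPM in rPS, against 60.3, 84.5, 91.3, 92.3, 96.4, 106 and 108 CPM in NT. The 2 highest rPS libraries lay above NT replicate 5 and below the 6 other NT libraries. The means were 56.7 ± 12.4 CPM in rPS (SD, n = 5) and 91.2 ± 15.9 CPM in NT (SD, n = 7), and the log2 fold change was -0.75 ± 0.18 (SE, adjusted p = 0.00719). All 27 fits that each left out 1 library kept this call. In the 21 libraries it was -0.49 ± 0.20 (SE, adjusted p = 0.166), and without NT replicate 5 as well -0.69 (adjusted p = 0.0296). The superoxide dismutases Sod1 (cytosolic) and Sod2 (mitochondrial) stood at -0.34 and -0.20 in 27 libraries and -0.41 and -0.03 in 21, without passing.

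**Figure D3:**
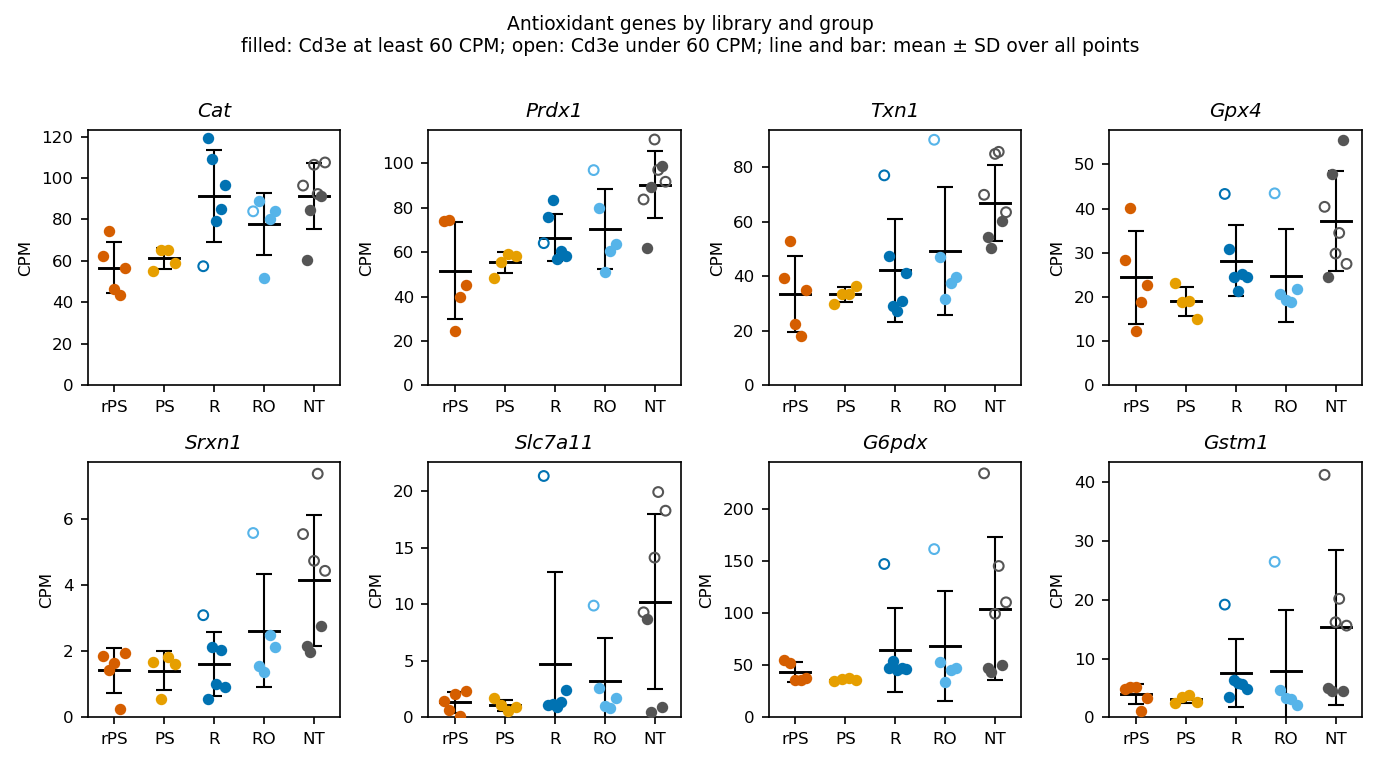
CPM of 8 members in each of 27 libraries by group, with filled points for Cd3e of at least 60 CPM, open points for Cd3e under 60 CPM, and lines and bars for the mean and SD over all points (bars end at 0 where the SD exceeds the mean). Open points are the highest of their group for G6pdx, Gstm1 and Srxn1, while for Cat and Prdx1 filled and open NT points mix and 6 of 7 lie above the rPS points.

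Of the 5 genes that handle sulfide, 1 fell in rPS against NT by edgeR, Ethe1, and 2 by DESeq2, Ethe1 and Sqor. Ethe1, the persulfide dioxygenase of mitochondria, was at 3.37, 4.53, 5.46, 5.83 and 6.55 CPM in rPS, against 4.21, 8.08, 8.41, 10.6, 12.8, 14.3 and 33.1 CPM in NT. NT replicate 5 lay within the rPS range and the 6 other NT libraries above it. Ethe1 changed by -1.46 ± 0.42 (SE, adjusted p = 0.0195) in 27 libraries, a call lost without NT replicate 4, which holds its highest value, and stood at -0.45 ± 0.26 (SE, adjusted p = 0.338) in 21. Sqor was at 3.97, 5.96, 6.04, 8.77 and 8.98 CPM in rPS, against 6.43, 8.43, 13.04, 18.9, 22.1, 36.5 and 45.6 CPM in NT. Its 4 highest NT values were again those of low Cd3e, and its log2 difference of -1.77 ± 0.72 (SE, adjusted p = 0.0776) did not pass by edgeR and was -0.42 ± 0.28 (SE, adjusted p = 0.393) in 21 libraries. DESeq2 gave -1.77 (adjusted p = 0.028) in 27. Tst, the thiosulfate sulfurtransferase, was low in every library, at 0.374 to 2.34 CPM in rPS and 0.932 to 2.81 CPM in NT, with overlap. Its log2 difference was -0.44 ± 0.45 (SE, adjusted p = 0.492). Suox was at 16.3, 17.5, 19.9, 22.4 and 22.6 CPM in rPS, against 7.19 at the lowest, 11.5 at the median and 24.9 CPM at the highest in NT. Its log2 difference was 0.34 ± 0.23 (SE, adjusted p = 0.292) in 27 libraries and, with the other sign, -0.16 ± 0.20 (SE, adjusted p = 0.677) in 21. Mpst, which makes sulfide from 3-mercaptopyruvate, was at 8.79, 9.84, 11.2, 13.1 and 14.2 CPM in rPS, against 6.93 at the lowest, 12.6 at the median and 22.7 CPM at the highest in NT, with a log2 difference of -0.42 ± 0.25 (SE, adjusted p = 0.23) in 27 libraries and -0.61 ± 0.29 (SE, adjusted p = 0.225) in 21.

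**Figure D4:**
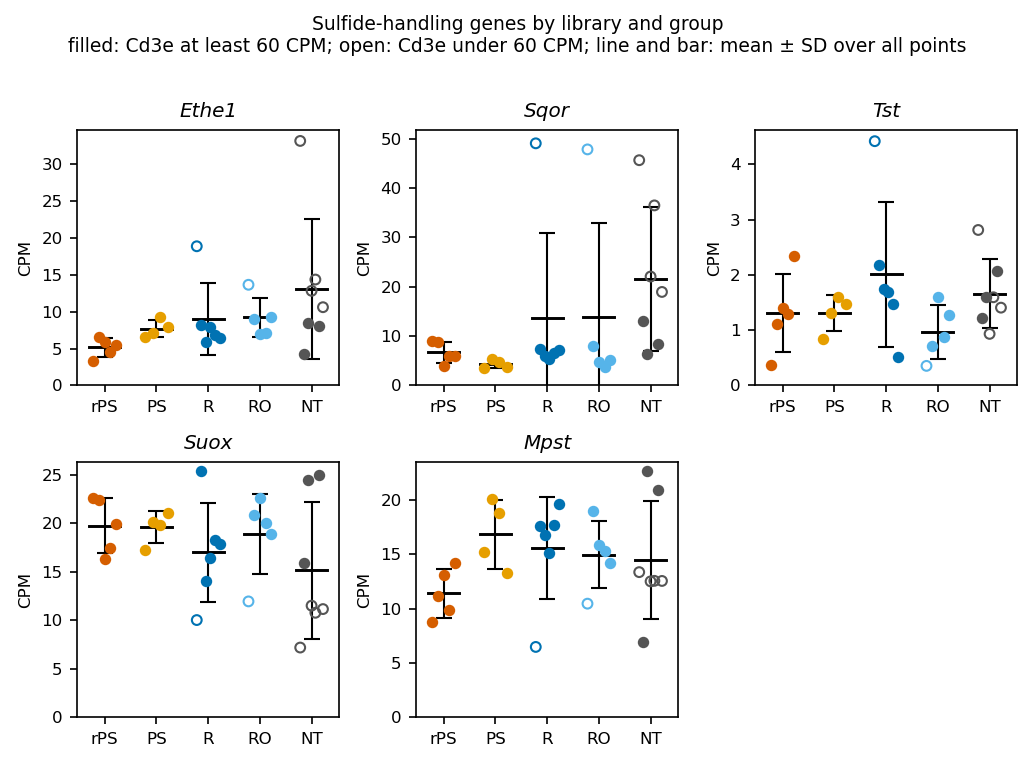
CPM of the 5 sulfide-handling genes in each of 27 libraries by group, drawn as in the plot of 8 antioxidant genes. For Ethe1 and Sqor the open points of low-Cd3e libraries are the highest of their groups, and for Suox they are the lowest. The rPS points of Ethe1 (3.37 to 6.55 CPM) lie below all 4 PS points (6.58 to 9.24 CPM), and the 2 groups nearly meet.

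In PS, mice given the empty polymersomes, 3 enzymes that remove peroxides, Cat, Prdx1 and Gpx4, were lower than in untreated mice by edgeR. These were 3 of 37 members (8.11%), against 2.46% of all genes called lower and 4.97% called in either direction. The comparison shares its NT libraries with that of rPS, so the 2 are not independent. Cat was at 55.4, 58.9, 65.4 and 65.5 CPM in PS, and changed by -0.70 ± 0.20 (SE, adjusted p = 0.0455) against NT. Prdx1, at 48.4, 55.5, 58.5 and 59.2 CPM in PS, lay below every NT library and changed by -0.83 ± 0.24 (SE, adjusted p = 0.049). Gpx4, at 15.02, 18.8, 19.1 and 23.1 CPM in PS, also lay below every NT library and changed by -1.10 ± 0.32 (SE, adjusted p = 0.049). In the 21 libraries these were -0.44 ± 0.21 (SE, adjusted p = 0.342), -0.67 ± 0.27 (SE, adjusted p = 0.272) and -1.26 ± 0.30 (SE, adjusted p = 0.145), and 0 of 37 members passed edgeR's test, where 0.0118% of all genes did. Without NT replicate 5 as well, Gpx4 at -1.56, Sod1 at -0.74 and Prdx3 at -0.88 passed (edgeR adjusted p between 0.00249 and 0.0266), against 2 NT libraries. The share of all genes called in that fit is not given here.

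The median log2 fold change of the members in PS against NT was -0.92 in 27 libraries and -0.41 in 21. An unadjusted edgeR p under 0.05 was met by 26 and by 12 of 37. Neither these counts nor the DESeq2 count that follows has the share of all genes beside it. DESeq2 called 17 members in 27 libraries, all lower, among them Nfe2l2 at -1.08 (adjusted p = 0.013), Txn1 at -1.13 (adjusted p = 0.013) and Sqor at -2.48 (adjusted p = 0.00919), which came close to the threshold of edgeR without passing it. Nfe2l2 was at 35.8, 41.7, 44.7 and 48.7 CPM in PS, with -1.08 ± 0.33 (SE, adjusted p = 0.0511) against NT and -0.42 ± 0.17 (SE, adjusted p = 0.261) in 21 libraries. Txn1, at 29.9, 33.5, 33.6 and 36.3 CPM in PS, lay below every NT library and stood at -1.13 ± 0.34 (SE, adjusted p = 0.0511), with -0.78 ± 0.26 (SE, adjusted p = 0.214) in 21. The values of Txnrd1, -0.15, Keap1, 0.09, and Gclm, -0.44, were smaller. Sqor, at 3.54, 3.75, 4.79 and 5.25 CPM in PS, lay below every NT library and stood at -2.46 ± 0.82 (SE, adjusted p = 0.0611), with -1.11 ± 0.29 (SE, adjusted p = 0.163) in 21. Ethe1 was at 6.58, 7.11, 7.91 and 9.24 CPM, a log2 difference of -0.94 ± 0.44 (SE, adjusted p = 0.148), and Suox and Mpst stood at 0.27 and 0.09. The number of members called in PS against NT, given here without the share of all genes, depended on single libraries of any group. It was 0 without any 1 PS library, or without NT replicate 3, 4, 7 or 8. It was also 0 without R replicate 2, 5, 6 or 7, RO replicate 1, 4 or 6, or rPS replicate 7. It was 1 without R replicate 4, 2 without RO replicate 5 or rPS replicate 1, 6 without rPS replicate 2, 7 without rPS replicate 4 or 5, and between 10 and 18 without NT replicate 2, 5 or 6, R replicate 3 or RO replicate 3.

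Free rapamycin, injected or oral, left 0 of 37 members past the adjustment against NT by edgeR. In R against NT 5 members had an unadjusted p under 0.05, 0.665% of all genes were called, and the member median was -0.31. In RO against NT the 3 values were 4 members, 0.0117% and -0.40. The smallest adjusted p was 0.178 for R, that of Srxn1, and 0.315 for RO, that of Osgin1. In the 21 libraries the medians were -0.06 in R and -0.20 in RO, 3 and 5 members had an unadjusted p under 0.05, and 0 were called by edgeR, with 0.241% and 0.0118% of all genes called. Srxn1 was at 0.546 at the lowest, 1.53 at the median and 3.09 CPM at the highest in R and at 1.36, 1.57, 2.12, 2.51 and 5.58 CPM in RO. Its log2 differences from NT were -1.38 ± 0.47 (SE, adjusted p = 0.178) in R and -0.64 ± 0.47 (SE, adjusted p = 0.567) in RO. Both groups reached into the NT range, with their highest value in the library of low Cd3e. Cat was at 57.5 at the lowest, 90.9 at the median and 119 CPM at the highest in R and 51.7, 80.1, 83.9, 84.3 and 88.7 CPM in RO, with log2 differences of -0.05 ± 0.17 (SE, adjusted p = 0.912) in R and -0.29 ± 0.18 (SE, adjusted p = 0.49) in RO. Prdx1 stood at -0.48 in R and -0.40 in RO. Nfe2l2 was at 47.9 at the lowest, 52.1 at the median and 91.6 CPM at the highest in R and 36.4, 42.2, 44.05, 47.97 and 103 CPM in RO, and Keap1 at 58.2 to 82.1 CPM in R and 74.5 to 84.5 CPM in RO. DESeq2 also called 0 members in both comparisons. Without R replicate 3, edgeR called 2 members in R against NT, a count without the share of all genes beside it. A further fit left out NT replicate 5 and the low-Cd3e libraries, which leaves 2 NT libraries. Gpx4 and Sod1 were lower there, in R at -1.09 and -0.66 and in RO at -1.45 and -0.81. Abcc1 was higher in R at 0.43 (edgeR adjusted p between 0.00546 and 0.0276 for all of these). Gpx4 and Sod1 were also called lower in that fit in rPS, at -1.13 and -0.68, and in PS, at -1.56 and -0.74. These comparisons share the same 2 NT libraries, so they are not independent. The share of all genes called in that fit is not given here.

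Loading the polymersomes with rapamycin did not move any member past the adjustment when rPS was set against PS. By edgeR 0 of 37 members passed in 27 libraries, where 0.0817% of all genes were called, and 0 in 21, where 0.241% were. The median log2 fold change was 0.13 in both, 2 and 6 members had an unadjusted p under 0.05, and DESeq2 called 0. Among the regulators and NRF2 targets, Nfe2l2 stood at 0.26 ± 0.15 (SE, adjusted p = 0.704), Keap1 at -0.15 ± 0.11 (SE, adjusted p = 0.785), Srxn1 at 0.05 ± 0.47 (SE, adjusted p = 0.989) and Txnrd1 at 0.03 ± 0.14 (SE, adjusted p = 0.979) in the 21 libraries. Cat at -0.05 ± 0.19 (SE, adjusted p = 0.97) and Prdx1 at -0.04 ± 0.24 (SE, adjusted p = 0.983) were close to 0, which does not show that the 2 treatments act alike. The smallest adjusted p was that of Gsr, chosen after its values were seen, at 0.94 ± 0.28 (SE, adjusted p = 0.206). Gsr was at 29.9, 43.1, 63.1, 86.7 and 115 CPM in rPS, against 35.8, 36.3, 36.8 and 37.01 CPM in PS, so the 4 PS libraries lay close together inside the wide rPS range. The highest rPS values, 115 and 86.7 CPM, came from replicates 1 and 2. Those libraries had monocyte and macrophage sums of 1756 and 1642, against 645 to 1012 in PS, and red pulp macrophage sums of 3015 and 2346, against 565 to 1011 in PS. The part of these cells in the Gsr values was not tested. The sulfide genes pointed in different directions in the same 21 libraries. Sqor was at 0.69 (adjusted p = 0.436), Suox at 0.08, Ethe1 at -0.51 (adjusted p = 0.592) and Mpst at -0.50 (adjusted p = 0.664). All 5 rPS libraries of Ethe1 lay below the 4 of PS, but the difference did not pass. The highest rPS library, at 6.55 CPM, and the lowest PS library, at 6.58 CPM, nearly met.

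At the same rapamycin dose and route, rPS against R also had 0 of 37 members past the adjustment by edgeR, in 27 libraries (0.0117% of all genes called) and in 21 (0.00588%). DESeq2 called 0 as well, and 4 and 6 members had an unadjusted p under 0.05. Cat came closest. In the 21 libraries it was at 43.8, 46.6, 56.5, 62.5 and 74.3 CPM in rPS, against 79.3, 85.1, 96.7, 109 and 119 CPM in R, and the groups did not overlap. The log2 difference was -0.71 ± 0.19 (SE, adjusted p = 0.208) in 27 libraries and -0.79 ± 0.18 (SE, adjusted p = 0.106) in 21, and it passed at -0.79 (adjusted p = 0.0488) when NT replicate 5 was also left out. Gclm was at 17.7, 18.8, 20.9, 22.2 and 32.2 CPM in rPS and 25.4, 29.1, 43.95, 49.1 and 50.03 CPM in R in the 21, a difference of -0.82 ± 0.24 (SE, adjusted p = 0.163) with 1 rPS library inside the R range. Mpst was at 8.79, 9.84, 11.2, 13.1 and 14.2 CPM in rPS and 15.2, 16.7, 17.6, 17.7 and 19.6 CPM in R, without overlap, at -0.61 ± 0.25 (SE, adjusted p = 0.327). Prdx2, the main peroxiredoxin of red cells, and Gpx1, a glutathione peroxidase that is also abundant there, were chosen after their values were seen and stood at -0.75 ± 0.24 (SE, adjusted p = 0.191) and -0.77 ± 0.31 (SE, adjusted p = 0.315).

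Summed red cell markers had a lower median in rPS than in R in the 21 libraries, with overlap and without a test. The summed CPM of 7 red cell markers (haemoglobin genes, Alas2, Klf1, Epor and Car2) in the 21 libraries ran from 113 to 3346 in rPS with a median of 991, from 720.0 to 1862 in PS, from 2258 to 8661 in R with a median of 3685, from 775 to 3820 in RO and from 1463 to 3611 in NT. Of the 5 rPS libraries, 3 lay below every R library of the 21 in this sum. R replicate 3, of low Cd3e, had a sum of 96.5, below every rPS library. None of the 7 markers was at 0 in every library. The 2 R libraries with the highest sums also had the 2 highest levels of Cat and of Gclm among all 27 libraries. Within rPS the order was another one, since replicate 4 had the highest sum (3346) with Cat at 46.6 CPM, while replicates 1 and 2 had sums of 911 and 991 with Cat at 62.5 and 74.3 CPM. The 4 NT libraries of low Cd3e had sums of 716 to 1654 with Cat at 92.3 to 108 CPM. Mpst in the 2 R libraries with the highest sums was at 16.7 and 17.6 CPM, within the range of the other R libraries of higher Cd3e. The part of red cell RNA in these differences was not tested.

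**Figure D5:**
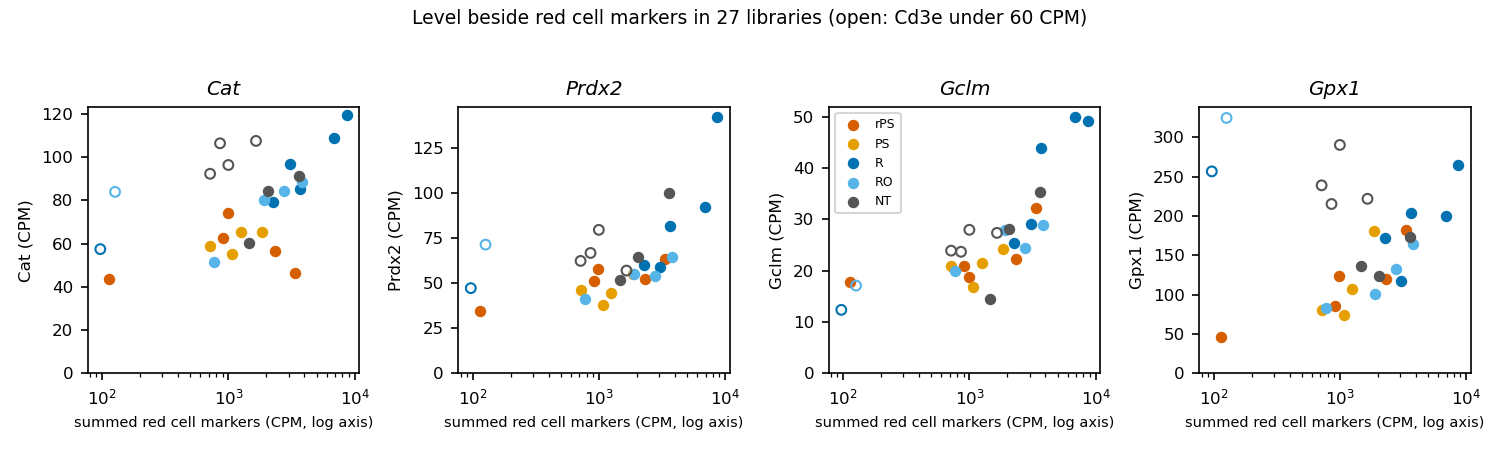
CPM of Cat, Prdx2, Gclm and Gpx1 against the summed CPM of 7 red cell markers (log axis) in 27 libraries, coloured by group, with open points for Cd3e under 60 CPM. The R libraries of higher Cd3e sit at sums of 2258 to 8661, the PS libraries at 720.0 to 1862, and the 2 R libraries with the highest sums are the 2 highest points for Cat and for Gclm.

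The other 3 comparisons had 0 members called by edgeR and by DESeq2. In rPS against RO 0.0175% of all genes were called in 27 libraries and 0.0471% in 21, and 1 and 3 members had an unadjusted p under 0.05. The member median was -0.38 in 27 libraries and -0.0032 in 21. Cat was at -0.38 (adjusted p = 0.731) and Ethe1 at -0.59 (adjusted p = 0.645) in the 21. In R against RO, which differ in route and vehicle at the same dose, 0% of all genes were called in either fit, and 3 and 7 members had an unadjusted p under 0.05. Prdx2 stood at 0.74 ± 0.25 (SE, adjusted p = 0.646) and Gclm at 0.69 ± 0.26 (SE, adjusted p = 0.802) in the 21, with R the higher in both. The interaction contrast, which sets rPS minus PS against R minus NT, had a member median of 0.37 in 27 libraries and 0.20 in 21. There 0.0175% and 0.0118% of all genes were called, and 0 and 3 members had an unadjusted p under 0.05.

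A wider list of 49 further genes of the pathway, 44 of them tested, was read beside the 38. In rPS against NT 10 of 44 were called (8 lower, 2 higher) in 27 libraries, near the share of all genes, 21.5%. In 21 libraries 4 of 44 were called (all lower), beside 3.19% of all genes. The genes named below are single calls and do not set the list apart from other genes in the 27 libraries. Glrx, glutaredoxin, which reduces protein-glutathione disulfides, was at 5.13, 6.24, 7.64, 8.42 and 8.66 CPM in rPS, against 10.5 at the lowest, 27.04 at the median and 33.8 CPM at the highest in NT. The groups did not overlap, also when the NT libraries of low Cd3e were left out (10.5, 16.8 and 22.2 CPM). Glrx changed by -1.80 ± 0.34 (SE, adjusted p = 0.00144) in 27 libraries and -1.20 ± 0.24 (SE, adjusted p = 0.0135) in 21. With the monocyte and macrophage covariate it was -1.16 (adjusted p = 0.019), and it passed in all 27 fits without 1 library. Prdx4, the peroxiredoxin of the endoplasmic reticulum, was at 2.85, 4.48, 5.798, 5.83 and 8.32 CPM in rPS, against 9.24 at the lowest, 11.96 at the median and 14.2 CPM at the highest in NT. It also did not overlap, and changed by -1.19 ± 0.25 (SE, adjusted p = 0.00351) in 27 libraries and -0.92 ± 0.24 (SE, adjusted p = 0.0391) in 21. Plasma cell sums in the 21 were 195 to 1066 in rPS and 1028 to 2164 in NT. NK cell sums, of which Tyrobp alone makes up to 61.4 CPM in the 21, were 66.4 to 120 in rPS and 163 to 228 in NT. The part of these cells in the lower levels of Prdx4 and of the other genes called in 21 libraries was not tested. Esd, which hydrolyses S-formylglutathione, was at 13.1, 18.6, 19.5, 27.7 and 33.4 CPM in rPS and 29.8 at the lowest, 44.3 at the median and 49.4 CPM at the highest in NT, with overlap. It changed by -0.999 ± 0.23 (SE, adjusted p = 0.00485) in 27 libraries and -0.86 ± 0.24 (SE, adjusted p = 0.0495) in 21.

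Tstd3, which encodes a protein with the sulfurtransferase domain of TST, was at 2.43, 2.57, 3.11, 3.898 and 6.44 CPM in rPS, against 5.52 at the lowest, 8.31 at the median and 9.05 CPM at the highest in NT. In the 21 libraries NT lay at 8.02, 8.89 and 9.05 CPM, above all rPS libraries, and the change was -1.20 ± 0.32 (SE, adjusted p = 0.0415), with -1.11 ± 0.27 (SE, adjusted p = 0.0076) in 27 and -0.96 (adjusted p = 0.0512) with the monocyte and macrophage covariate. Cbs, cystathionine beta-synthase, which commits homocysteine to cysteine and can release hydrogen sulfide, was higher in rPS. It was at 1.78, 5.61, 6.04, 8.398 and 14.1 CPM in rPS, against 0.8596 at the lowest, 1.72 at the median and 3.03 CPM at the highest in NT. The lowest rPS library overlapped with NT and the 4 others lay above it, and the log2 fold change was 1.92 ± 0.46 (SE, adjusted p = 0.00672) in 27 libraries and 1.89 ± 0.57 (SE, adjusted p = 0.0698) in 21. With the monocyte and macrophage covariate it was 1.01 (adjusted p = 0.211). In PS against NT 3 of 44 were called, beside 4.97% of all genes. Glrx changed by -1.55 ± 0.36 (SE, adjusted p = 0.0362), Cbs by 1.79 ± 0.48 (SE, adjusted p = 0.0415) with 5.13, 5.77, 8.21 and 8.61 CPM in PS, all above NT, and Esd by -0.86 ± 0.24 (SE, adjusted p = 0.0457). In the 21 libraries none of the 3 passed, with Glrx at -0.95 ± 0.25 (SE, adjusted p = 0.163) and Cbs at 1.76 ± 0.59 (SE, adjusted p = 0.21). Against NT, 0 of 44 were called in R or in RO by edgeR. Glrx came closest in R at -1.21 ± 0.30 (SE, adjusted p = 0.0597), and in R and RO Cbs lay between 1.95 and 8.52 CPM and between 1.20 and 9.15 CPM.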

How the data were processed

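The authors deposited, for each library, a table of expected counts (estimated counts per Ensembl gene ID, not normalized). From 21.3% to 25% of the nonzero values of a library are not whole, and they were rounded to whole numbers. Per the submitters' processing notes, Trimmomatic 0.39, STAR 2.7.5a, Cufflinks 2.1.1, Cuffdiff and build GRCm39 were used. The sources used here do not say which of them counted the reads, with which annotation release and whether by strand, so genes that overlap others or have near copies are uncertain. CPM is the count divided by the library's total and multiplied by 1000000.

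Genes passing edgeR's filterByExpr (17132 genes in 27 libraries, 16998 in 21) were fitted in 1 model over the 5 groups by edgeR 4.0.16's robust quasi-likelihood test with TMM scaling (R 4.3.3). Fold changes are log2, SE is the fold change over the root of F, and p-values were adjusted over all genes tested (Benjamini-Hochberg) at 0.05. RO replicate 7 was left out of all fits. DESeq2 1.42.0 was an alternative. Shares of all genes called are given for the edgeR fits of 27 and 21 libraries and for no other fit. Counts of members with an unadjusted p under 0.05 have no share of all genes beside them.

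Values were given for the 12 members called with the smallest adjusted p, for 13 members set by role (Nfe2l2, Keap1, Nqo1, Hmox1, Gclm, Txnrd1, Srxn1, Slc7a11, Ethe1, Sqor, Tst, Suox and Mpst) and for up to 4 called genes of the wider list in each comparison. Abcc1, Gsr, Prdx2 and Gpx1 were added after their values were seen. The members, the marker lists and the wider list were chosen with earlier results of these data known. On simulated counts with known changes, the test recovered 75% of 4-fold and 36% of 2-fold changes for rPS against NT (16873 genes), with 3 false calls. Apart from the set changes, the simulation gave a gene the same mean share in every library, with independent noise. It held no libraries of low Cd3e, so these rates need not hold for the real comparisons with NT. Between libraries of 1 group the chi-square per gene was at least 3.304, so none was a duplicate. Promoter windows came from RefSeq. A red cell marker of the original list is not reported here, and the sums leave it out.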

Additional observations from a re-analysis of the deposited data

Results flagged for a closer look

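A single library stood apart from the rest of its group, by the size of its gap to the nearest library over the whole range of the group (Dixon's test, groups of 4 to 10), in 28 of 115 gene and group combinations, where chance gives about 1 in 20. R replicate 3 and RO replicate 3, both of low Cd3e and high Lyz2, gave 11 each. In R replicate 3 these were Ethe1 at 18.86 CPM (other R libraries 5.84 to 8.186), G6pdx at 147 CPM (45.91 to 53.92), Gstm1 at 19.15 CPM (3.547 to 6.424), Nfe2l2 at 91.63 CPM (47.89 to 54.4) and Osgin1 at 11.49 CPM (4.028 to 6.247). They also included Pgd at 331 CPM (72.91 to 81.07), Slc7a11 at 21.36 CPM (0.9045 to 2.469), Sqor at 49.06 CPM (5.314 to 7.367), Taldo1 at 235.3 CPM (79.6 to 102.5) and Tkt at 246.3 CPM (144.6 to 171.4). Mpst, which makes sulfide, was the one low value there, at 6.482 CPM (15.15 to 19.62).

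In RO replicate 3 they were G6pdx at 161.3 CPM (other RO libraries 34.26 to 53.41), Gpx4 at 43.45 CPM (18.82 to 21.81), Gstm1 at 26.42 CPM (2.118 to 4.57), Nfe2l2 at 102.8 CPM (36.41 to 47.97) and Pgd at 225.9 CPM (74.12 to 83.86). They also included Slc7a11 at 9.892 CPM (0.8686 to 2.57), Sqor at 47.83 CPM (3.667 to 7.997), Srxn1 at 5.582 CPM (1.361 to 2.509), Taldo1 at 249.3 CPM (72.73 to 88.68), Tkt at 288.6 CPM (134.1 to 160.7) and Txn1 at 89.94 CPM (31.79 to 46.98). NT replicate 4, of the same kind, stood apart for Ethe1 at 33.14 CPM (other NT libraries 4.212 to 14.35) and Gstm1 at 41.18 CPM (4.46 to 20.13).

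The remaining 4 were in libraries of higher Cd3e. Cat was low in RO replicate 5, at 51.7 CPM (80.1 to 88.7 in the other RO libraries), and that library also had the lowest red cell sum of the RO libraries of higher Cd3e, 775 CPM. Keap1 was high in rPS replicate 2, at 87.25 CPM (68.11 to 73.13). Srxn1 was low in PS replicate 4, at 0.5471 CPM (1.609 to 1.825), close to the level of 3 counts. Taldo1 was high in PS replicate 5, at 81.44 CPM (69.6 to 70.68).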

How the results depend on the processing

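The number of members called in rPS against NT was 12 in the fit reported and depended on most choices. The counts below show how it moved, without the share of all genes called in each setting. It was 0 without the libraries of Cd3e under 60 CPM, 7 with RO replicate 7, 7 with no low-count filter, 2 with the compared groups only and 1 with the monocyte and macrophage covariate, and it ranged from 5 to 18 when single libraries were left out. The count was 11 under DESeq2's size factors and 17 by DESeq2, with 11 and 12 of the genes shared. It was 9 without libraries of Cd3e under 100 CPM, but only 4 of these (Cat, Prdx1, Tkt and Ethe1) are among the 12. For PS against NT, with 3 called, it was 0 without Cd3e under 60 CPM, 0 with RO replicate 7, 0 with no filter and 0 with the covariate, 17 by DESeq2 and 14 with the compared groups only, and ranged from 0 to 18. Without Cd3e under 100 CPM, R against NT had 3 called, RO against NT 2 and rPS against R 1. Single libraries moved R against NT between 0 and 2, and every other comparison stayed at 0 under every setting run. Of the called log2 fold changes in rPS against NT, Slc7a11 turned to 0.86 and Pgd to 0.0022 without Cd3e under 100 CPM, both from negative values. Cat in rPS against NT kept its call in each setting except 2, without Cd3e under 60 CPM and with the covariate.

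The labels do not say whether the replicate numbers pair the samples. Over 38 pairs of libraries with the same number, the correlation of their deviations from the group means ran from -0.41 to 0.80 and was over 0.1 in 14. The highest was that of R replicate 3 with RO replicate 3, both of low Cd3e, so the correlations cannot decide whether the numbers pair samples. With the replicate number as a block, 4 members were called in rPS against NT and 0 in PS against NT, without the share of all genes beside them. The depth limits Srxn1, Slc7a11, Tst and Nqo1, where 3 counts correspond to between 0.191 and 0.7 CPM.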
